A study of Mus musculus with 6 samples.

Results

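The genes described here are 9 type I interferon effectors and regulators: Oas1a, Oasl2, Ifit1, Ifit2, Ifit3, Isg15, Usp18, Rsad2 and Bst2. They were taken by gene symbol from a table of 15139 rows, and all 9 had a row. The libraries hold messenger RNA of mouse bone marrow cells after 1 week in RPMI medium with 10% fetal bovine serum and antibiotics. The medium held interleukin 3 at 10 ng/ml and stem cell factor at 50 ng/ml, cytokines on which mast cells and their progenitors grow. The knockout (KO) group carries MxCre and Dnmt3a-/-, the loss of a de novo DNA methyltransferase, and was measured here in 2 libraries, replicates 2 and 3. Replicate 1 of the 3 KO samples was not analysed here. The wild-type (WT) group carries MxCre and Dnmt3a+/+ and was measured in 3 libraries. MxCre is a recombinase driven by the promoter of Mx1, itself an interferon-inducible gene, and both genotypes carry it. The sources used here state neither whether an interferon inducer was given to the mice, nor when, nor their age and strain. Another label of the KO samples calls them a knockdown.

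Type I interferons bind the receptor pair Ifnar1 and Ifnar2, and the kinases Jak1 and Tyk2 then pass on the signal. A transcription factor complex that includes Stat2 and Irf9 binds interferon-stimulated response elements in the promoters of antiviral genes. Oas enzymes make short oligoadenylates that activate the nuclease RNase L, Ifit proteins bind foreign RNA, Isg15 is a ubiquitin-like protein that is joined to other proteins, and Usp18 removes it and also dampens signalling at the receptor. Many blood cells, macrophages among them, transcribe some of these genes at a low level without infection.

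The promoters of 4 of the genes are shown first, since they hold the same letters of the response element while the genes differ in level and in change between the genotypes. RefSeq windows of GRCm38.p6, from 250 bases before to 50 bases after the annotated start, matched 8 of the 9 genes by gene number. Usp18 is named only. The start of a window need not be the outer end of the gene given below, and the window of Ifit3 lies inside its gene. Capitals mark each match, on either strand, to the paired core of the response element, which is GAAA, any 2 bases and GAAA again, and which reads TTTC, 2 bases and TTTC in the window of Ifit3, where the matches are on the other strand. Oas1a had the largest change of the 6 tested genes on the log2(FPKM + 1) scale, Isg15 has the most matches, Ifit3 has the lowest level and the largest ratio of means, and Bst2 has the highest level and did not pass the test. The windows lie at chr5:120907476-120907775 on the minus strand (Oas1a), chr4:156200769-156201068 on the minus strand (Isg15), chr19:34583279-34583578 on the plus strand (Ifit3) and chr8:71537423-71537722 on the minus strand (Bst2), each written 5′ to 3′ along its gene.
Oas1a: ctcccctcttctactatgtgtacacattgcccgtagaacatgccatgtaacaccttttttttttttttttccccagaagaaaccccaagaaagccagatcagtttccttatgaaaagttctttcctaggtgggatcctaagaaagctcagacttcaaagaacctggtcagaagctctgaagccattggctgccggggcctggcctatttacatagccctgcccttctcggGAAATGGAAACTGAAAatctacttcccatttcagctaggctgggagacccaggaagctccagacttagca
Isg15: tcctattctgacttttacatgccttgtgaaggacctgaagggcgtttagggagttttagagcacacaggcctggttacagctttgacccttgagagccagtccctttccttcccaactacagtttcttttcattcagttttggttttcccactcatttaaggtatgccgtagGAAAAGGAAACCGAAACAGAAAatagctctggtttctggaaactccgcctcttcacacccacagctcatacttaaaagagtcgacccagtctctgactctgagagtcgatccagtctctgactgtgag
Ifit3: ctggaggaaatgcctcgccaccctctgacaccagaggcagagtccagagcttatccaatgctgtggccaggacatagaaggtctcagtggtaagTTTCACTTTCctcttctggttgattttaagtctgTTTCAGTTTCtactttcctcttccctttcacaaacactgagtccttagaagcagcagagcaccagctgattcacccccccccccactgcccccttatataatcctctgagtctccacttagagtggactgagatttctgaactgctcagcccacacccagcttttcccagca
Bst2: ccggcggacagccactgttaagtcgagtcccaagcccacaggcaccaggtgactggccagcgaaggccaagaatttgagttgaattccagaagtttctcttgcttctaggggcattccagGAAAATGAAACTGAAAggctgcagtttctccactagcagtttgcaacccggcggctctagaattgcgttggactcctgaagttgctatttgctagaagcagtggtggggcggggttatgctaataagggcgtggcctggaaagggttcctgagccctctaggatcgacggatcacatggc

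This paired GAAA motif was found in the windows of 6 of the 8 genes, namely Oas1a, Ifit1, Ifit3, Isg15, Rsad2 and Bst2. It is in 3.44% of the 32851 promoter windows of the same length. Isg15 had 3 matches, each overlapping the next, the first of them 78 bases before the start. Oas1a had 2 overlapping matches that begin 20 and 14 bases before the start, and Bst2 had 2 overlapping matches that begin 130 and 124 bases before it. The matches of Ifit1 and Ifit3, 2 each, lie on the other strand, as does the 1 match of Rsad2. Neither Oasl2 nor either of the 2 windows of Ifit2 holds these letters. Among 8945 tested genes with a window, 341 had a match to the paired GAAA motif. Of these 19.4% were lower and 9.38% higher in KO libraries, against 12.7% lower and 8.75% higher among genes without a match. The median log2 change was -0.05 with a match and -0.04 without. A match describes letters in a window, and it was present both in genes that changed and in Bst2.

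FPKM, the scale of all levels here, divides fragments by gene length and by the library's mapped fragments. Read totals were not used here, but the low FPKM of genes with 1 annotated transcript tended to fall near whole multiples of a step. The step differed between libraries, and from it a depth between 11400000 and 23800000 fragments per library was estimated. The fit was partial: its mean cosine, 1 for exact multiples, was 0.396 to 0.540 over 65 to 77 genes, lowest in KO replicate 2. All fragment estimates and Poisson intervals below rest on this step. Dnmt3a was lower in both KO libraries (2.58 and 3.42 FPKM) than in the WT libraries (6.68, 9.99 and 9.04 FPKM). Sex was not balanced: Xist reached 0.02 FPKM at most in both KO libraries and in WT replicate 1, against 14.4 and 15.3 FPKM in WT replicates 2 and 3, so WT replicate 1 came from another animal than those. Separate animals or cultures are not stated for the replicates, so p-values reflect only the spread of these libraries, which may be technical. Of 11365 genes with at least 1 FPKM in at least 2 libraries, 2507 (22.1%) changed between KO and WT at an adjusted p under 0.05 (limma on log2(FPKM + 1), Benjamini-Hochberg), 1032 (9.08%) higher and 1475 (13%) lower in KO. Higher calls were 41.2% of all calls, and 53.8% after upper-quartile scaling. In bulk RNA, fewer cells of a type and less RNA per cell cannot be told apart.

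Of the 9 genes, 6 were tested, and 3 of these fell, Oas1a, Ifit2 and Isg15, while 1 rose, Usp18, beside 13% of all tested genes that fell and 9.08% that rose. Oasl2 and Bst2 did not pass. Ifit1, Ifit3 and Rsad2 lay below the filter on low values. The means of 8 of the 9 genes were lower in KO than in WT libraries. In 5 of the 9 both KO libraries lay below every WT library, in 1 above, and in 3 the groups overlapped. Among all rows, the KO libraries lay below every WT library in 26% and above in 18.6%, 44.7% together. Of the 6 tested genes, 4 lay below and 1 above, beside 30.8% below and 20.4% above (51.1% together) of all tested genes. Of the 3 untested genes, 1 stood apart (Ifit3, below), beside 25.3% of untested rows in either direction and 11.8% below. The median log2 change of the 6 tested genes was -0.56, beside -0.04 for all tested genes. Ifit2 passed the filter through the WT libraries only, so that its inclusion already depended on a difference.

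**Figure D1:**
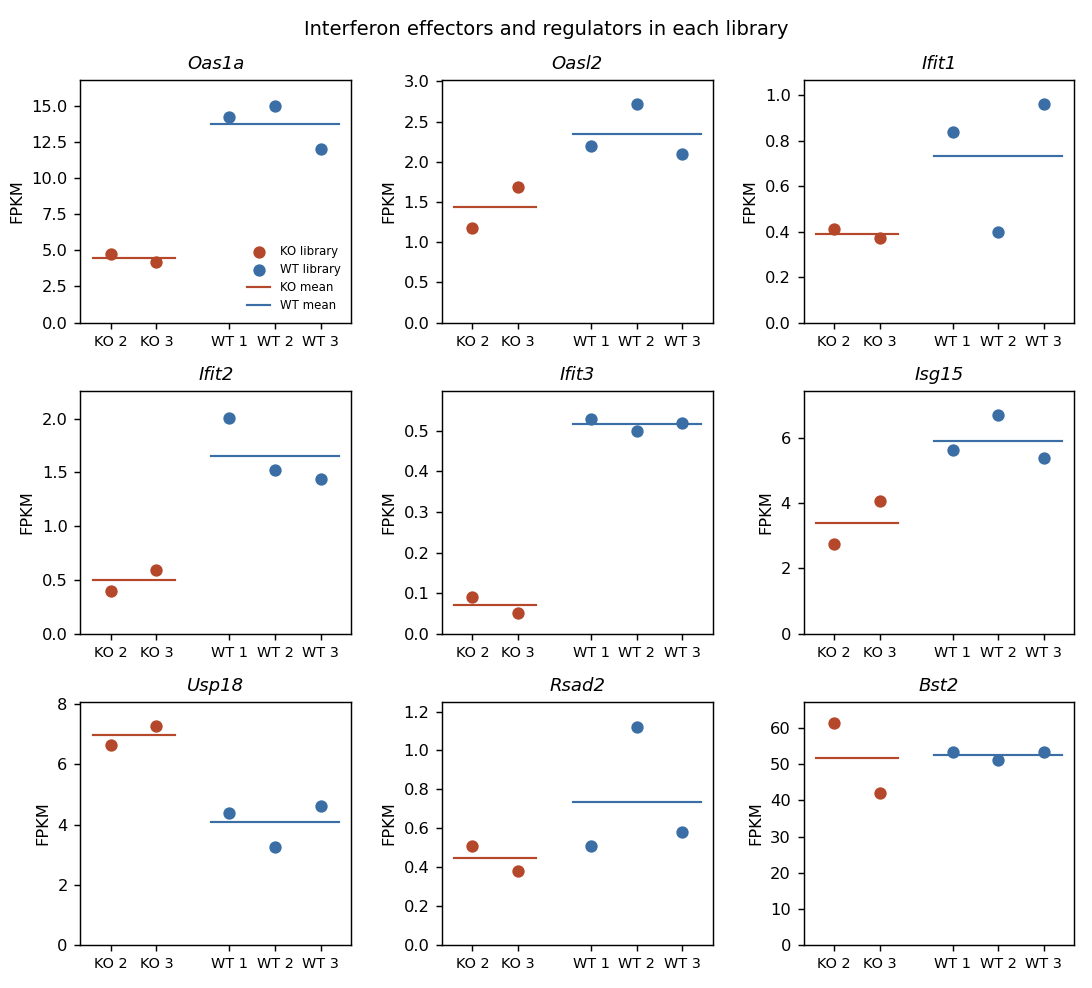
Level of each of the 9 genes in FPKM (vertical axes start at 0) in the 2 KO libraries and the 3 WT libraries, where a point is 1 library and a line the mean of its group. Oas1a, Oasl2, Ifit2, Ifit3 and Isg15 have both KO points under all WT points, Usp18 has them above, and Ifit1, Rsad2 and Bst2 overlap.

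Oas1a (gene 246730, chromosome 5, 120896256 to 120907544 in GRCm38.p6) encodes an oligoadenylate synthetase. It had 4.75 and 4.20 FPKM in KO replicates 2 and 3, against 14.23, 15.04 and 12.03 FPKM in WT replicates 1, 2 and 3. Both KO libraries were far below the lowest WT library. The mean was 4.47 ± 0.389 FPKM in KO (SD, n = 2) and 13.8 ± 1.56 FPKM in WT (SD, n = 3), a ratio of 0.325. Oas1a fell by 1.43 on the log2(FPKM + 1) scale (SE 0.12, 95% interval -1.70 to -1.16, limma adjusted p = 0.000426). Its level exceeded that of 44.3% of rows in KO and 66.6% in WT. Of the 50-base stretches of its transcript, 57.6% are also in Oas1g, a paralog, so that reads of the pair may have been shared, and how such reads were counted is not stated in the sources used here. Oas1g had 0.45 and 0.26 FPKM in KO libraries, against 1.16, 1.68 and 1.94 FPKM in WT libraries, and fell by 0.93 (SE 0.18, limma adjusted p = 0.0109), with 1 FPKM reached in WT libraries alone. The call of Oas1g was lost with sex in the model (adjusted p = 0.0951) and without KO replicate 3 (0.0666).

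Oasl2 (gene 23962, chromosome 5, 114896926 to 114912245) encodes a relative of the Oas enzymes with ubiquitin-like domains. It had 1.18 and 1.69 FPKM in KO libraries, against 2.2, 2.72 and 2.10 FPKM in WT libraries. The groups did not overlap, but the KO libraries differed from each other by more than KO replicate 3 did from the nearest WT library. The log2 change was -0.46 ± 0.15 (SE, 95% interval -0.82 to -0.10), and limma gave an adjusted p of 0.0749, so the difference was not shown at the threshold.

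The Ifit genes lie together on chromosome 19 and encode tetratricopeptide-repeat proteins that bind RNA or other proteins. Ifit2 (gene 15958, 34550550 to 34576534) had 0.40 and 0.59 FPKM in KO libraries, against 2.01, 1.52 and 1.44 FPKM in WT libraries. The ratio of the means was 0.299. Ifit2 fell by 0.83 on the log2(FPKM + 1) scale (SE 0.16, limma adjusted p = 0.0106), a scale that understates changes of low genes. With a pseudocount of 0.1 the change was -1.57. Without KO replicate 2 its adjusted p was 0.0513.

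Ifit3 (gene 15959, 34583119 to 34588982) had 0.09 and 0.05 FPKM in KO libraries, against 0.53, 0.50 and 0.52 FPKM in WT libraries. Both KO libraries were well below the WT libraries, which stood close together. The mean was 0.07 ± 0.0283 FPKM in KO (SD, n = 2) and 0.517 ± 0.0153 FPKM in WT (SD, n = 3), the lowest level of the 9 genes in both genotypes. These values rest on few fragments, an estimated 4 and 1 in KO libraries and 13, 10 and 12 in WT libraries. The 95% Poisson interval of the level, which covers counting error only, was 0.0245 to 0.23 and 0.00127 to 0.279 FPKM in the KO libraries and 0.24 to 0.92 FPKM in WT replicate 2. The SD of the 3 WT values was narrower than these intervals. No library reached 1 FPKM, and Ifit3 was not tested with the filter. Fitted over all 15139 rows, its log2 change was -0.50 ± 0.06 (SE, limma adjusted p = 0.00506), a fit in which 5 of the 9 genes and 15.7% of all rows passed, 9.07% of all rows lower in KO. With a pseudocount of 0.1 in the unfiltered fit, a setting chosen after seeing the data, the change of Ifit3 was -1.87 (limma adjusted p = 0.00643) and larger than the -1.60 of Oas1a. Of its transcript's 50-base stretches, 51.2% are also in Ifit3b, which had 0.02 and 0.09 FPKM in KO libraries, against 0.24, 0.16 and 0 FPKM in WT libraries.

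Ifit1 (gene 15957, 34640889 to 34650009) did not separate the genotypes. It had 0.41 and 0.37 FPKM in KO libraries, against 0.84, 0.40 and 0.96 FPKM in WT libraries, and WT replicate 2 lay between the KO libraries. Fitted over all rows, the log2 change was -0.30 (95% interval -0.67 to 0.07, limma adjusted p = 0.249). Its paralog Ifit1bl2, with 1.12 and 0.82 FPKM in KO libraries and 2.43, 2.09 and 1.47 FPKM in WT libraries, did not pass (log2 change -0.60, limma adjusted p = 0.0523).

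**Figure D2:**
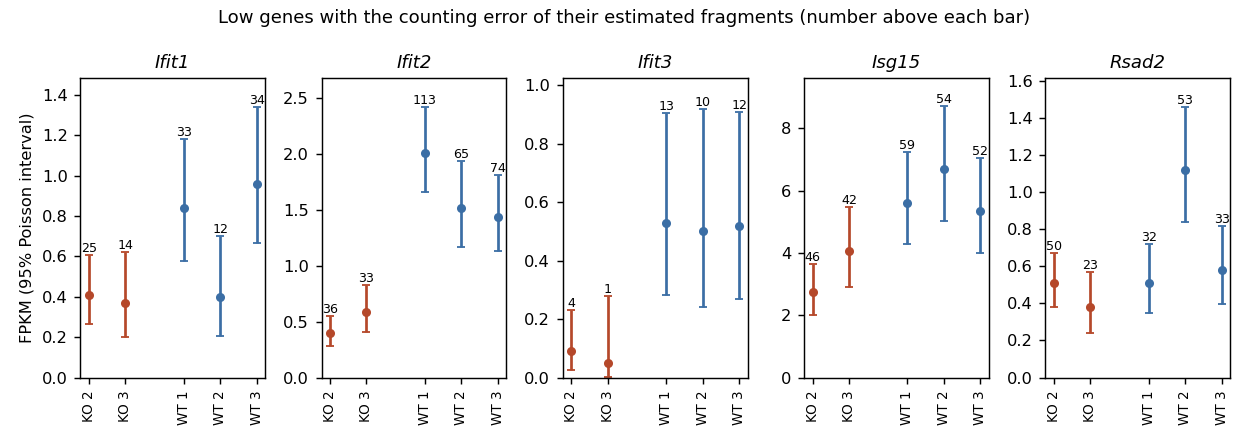
Level in FPKM (axes start at 0) of Ifit1, Ifit2, Ifit3, Isg15 and Rsad2 in each KO and WT library. Bars are 95% Poisson intervals from the estimated number of fragments printed above each bar. The intervals of Ifit2 are apart between the 2 KO and the 3 WT libraries, those of Isg15 overlap in part, and Ifit3 rests on 1 to 13 fragments per library.

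Isg15 (gene 100038882, chromosome 4, 156199424 to 156200818) encodes the ubiquitin-like modifier whose promoter holds 3 overlapping matches above. It had 2.73 and 4.05 FPKM in KO libraries, against 5.61, 6.68 and 5.36 FPKM in WT libraries. Both KO libraries were below every WT library, and KO replicate 3 was the nearer. The mean was 3.39 ± 0.933 FPKM in KO (SD, n = 2) and 5.88 ± 0.701 FPKM in WT (SD, n = 3). Isg15 fell by 0.66 (SE 0.16, 95% interval -1.03 to -0.29, limma adjusted p = 0.0234). The call was lost without KO replicate 2 (adjusted p = 0.0826) and without WT replicate 2 (0.0723). An estimated 46 and 42 fragments in KO libraries and 59, 54 and 52 in WT libraries lie behind these values.

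Usp18 (gene 24110, chromosome 6, 121245906 to 121270917) encodes the protease that removes Isg15 from proteins, and it moved the other way. It had 6.65 and 7.28 FPKM in KO libraries, against 4.39, 3.27 and 4.63 FPKM in WT libraries. Both KO libraries were above every WT library. The mean was 6.96 ± 0.445 FPKM in KO (SD, n = 2) and 4.10 ± 0.726 FPKM in WT (SD, n = 3), a ratio of 1.70. Usp18 rose by 0.65 ± 0.14 (SE, 95% interval 0.32 to 0.98, limma adjusted p = 0.0164). Its estimated fragments were 272 and 186 in KO libraries and 113, 64 and 109 in WT libraries. The call was lost without KO replicate 3 (adjusted p = 0.0890). In KO libraries the level of Usp18 was above that of Isg15, and in WT replicates 1, 2 and 3 it was below it, on the same FPKM scale.

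Rsad2 (gene 58185, chromosome 12, 26442743 to 26456452) encodes viperin, an enzyme that makes a chain-terminating nucleotide. It had 0.51 and 0.38 FPKM in KO libraries, against 0.51, 1.12 and 0.58 FPKM in WT libraries. WT replicate 2 was the high library, and WT replicate 1 was level with KO replicate 2. Fitted over all rows, the log2 change was -0.25 (95% interval -0.64 to 0.14, limma adjusted p = 0.366).

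Bst2 (gene 69550, chromosome 8, 71534255 to 71537472) encodes tetherin, which holds budding virus particles at the cell surface and in mice also marks plasmacytoid dendritic cells. It had 61.34 and 42.05 FPKM in KO libraries, against 53.32, 51.09 and 53.37 FPKM in WT libraries. The WT libraries lay between the KO libraries, 1 of which was above and the other below all of them. The mean was 51.7 ± 13.6 FPKM in KO (SD, n = 2) and 52.6 ± 1.30 FPKM in WT (SD, n = 3), with a log2 change of -0.05 (95% interval -0.39 to 0.29, limma adjusted p = 0.850). The sign turned under upper-quartile scaling and quantile normalization (0.03 in each). The KO libraries decided the value: without KO replicate 3 it was 0.22 (adjusted p = 0.0844), and without KO replicate 2 it was -0.32 (0.0248). A log2 difference between the KO libraries at least as large as that of Bst2 was found for 4.66% of tested genes. Of 11 plasmacytoid dendritic cell markers, 7 were in the table and 3 were tested, of which 1 rose and 0 fell. The one that rose was Il3ra, a chain of the interleukin 3 receptor that is also a basophil marker, with 82.31 and 78.3 FPKM in KO libraries against 47.64, 46.98 and 47.89 FPKM in WT libraries (log2 change 0.74). Tcf4 and Runx2 did not pass, and Ccr9, Spib, Pacsin1 and Cox6a2 were below 1 FPKM in every library. Among these, Ccr9 had 0.01 and 0.02 FPKM in KO libraries against 0.03, 0 and 0.02 FPKM in WT libraries, and Spib had 0.14 and 0.1 FPKM in KO libraries against 0.63, 0.66 and 0.61 FPKM in WT libraries. The summed level of the 7 was 83.3 to 86.3 FPKM in KO libraries and 52.5 to 53.2 FPKM in WT libraries. Il3ra made up most of this sum in every library. Tcf4 and Spib were lower in both KO libraries than in every WT library, and Runx2, Ccr9, Pacsin1 and Cox6a2 overlapped. The part of plasmacytoid dendritic cells in the level of Bst2 was not tested.

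**Figure D3:**
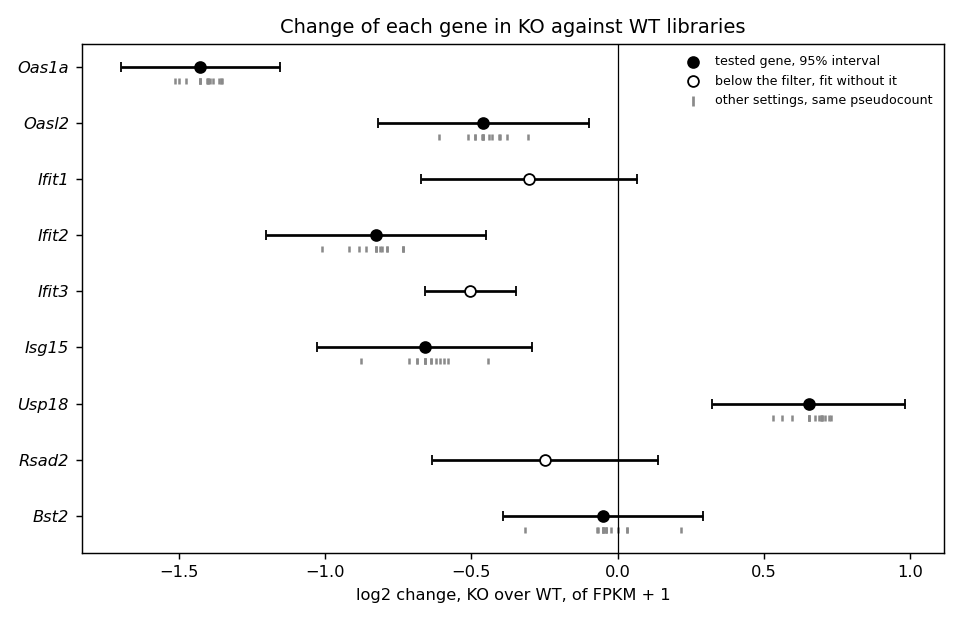
Change of each gene on the log2(FPKM + 1) scale, KO over WT, with its 95% interval, where filled points are tested genes, open points are genes below the filter fitted without it, and grey ticks are other settings with the same pseudocount. Oas1a, Ifit2 and Isg15 lie below 0 and Usp18 above 0 under every setting drawn, and Bst2 lies on both sides of 0.

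With sex as a covariate, which sets the KO libraries against WT replicate 1, 2 of the 6 tested genes were called in place of 4, and 1312 of all 11365 tested genes (11.5%) in place of 2507 (22.1%). Oas1a (log2 change -1.48, limma adjusted p = 0.00399) and Ifit2 (-1.01, 0.0228) were called. Isg15 (-0.61, 0.144) and Usp18 (0.56, 0.128) were not, although their values were close to those without the covariate. In the authors' deposited table, whose second test has an adjusted p under 0.05 for 6.09% of rows, that value was 4.19e-11 for Oas1a, 0.00873 for Isg15, 0.0938 for Usp18 and 0.369 for Ifit3. The other 5 genes had values of 0.523 or more in the authors' deposited table, among them Ifit2 (0.555), which fell in the limma fit.

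The genes did not share an order across the libraries of a genotype. Among WT libraries, 2 of the 9 genes were highest in replicate 1, 4 in replicate 2 and 3 in replicate 3. Among KO libraries, 5 were higher in replicate 2 and 4 in replicate 3. Isg15 and Oasl2, which were both highest in WT replicate 2 and higher in KO replicate 3, had the same order in all libraries but not the same sizes. Over the 5 libraries, the mean profile of the 6 tested genes (centred log2(FPKM + 1)) was nearest to Kat5, Phka2, Etfa, Aifm1 and Sh3bp2, at distances of 0.0195 to 0.0453. The 6 genes themselves lay 0.249 (Oasl2) to 1.27 (Usp18) from their own mean, so that the profile describes none of them closely. Kat5, a histone acetyltransferase gene, had 13.13 and 13.67 FPKM in KO libraries and 19.35, 18.91 and 18.31 FPKM in WT libraries.

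The ligands of the pathway were barely seen. Of 18 type I interferon genes, 1 had a row, Ifnz, with 0.09 and 0.42 FPKM in KO libraries and 0, 0.17 and 0 FPKM in WT libraries. The table holds no row with a mean of 0 in either genotype, so a gene silent in 1 genotype is not seen. The receptor chain Ifnar1 fell, with 8.23 and 9.0 FPKM in KO libraries against 13.54, 13.60 and 12.95 FPKM in WT libraries (log2 change -0.58, SE 0.08, limma adjusted p = 0.00330). Ifnar2 did not pass (log2 change -0.25, limma adjusted p = 0.10). Of 13 tested genes of the receptor and its signal, 3 fell and 2 rose, beside 13% and 9.08% of all tested genes. Their median log2 change was -0.16, beside -0.04 for all tested genes. Ptpn1, a phosphatase that acts on Jak kinases, fell by 0.83 and Ptpn6, another phosphatase, by 0.48. Socs1, an inhibitor of Jak kinases, had 103.67 and 95.40 FPKM in KO libraries against 63.68, 56.62 and 61.59 FPKM in WT libraries and rose by 0.71 (SE 0.08). The phosphatase gene Ptpn2 rose by 0.70, a call lost with sex as a covariate (adjusted p = 0.106). Stat2 (log2 change -0.16, limma adjusted p = 0.419) and Irf9 (-0.18, 0.301), parts of the activating complex, did not pass.

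Genes that sense nucleic acids and induce interferon include 17 that were tested, of which 11 fell and 0 rose, beside 13% and 9.08% of all tested genes, with a median log2 change of -0.47. The count was 7 with sex in the model, without WT replicate 2 and without KO replicate 3, where 11.5%, 14.4% and 16% of all genes tested in those fits were called in either direction. Irf5, a transcription factor of the interferon response, had 16.72 and 14.03 FPKM in KO libraries against 47.41, 44.65 and 38.46 FPKM in WT libraries and fell by 1.44 (SE 0.11). The kinase gene Ikbke fell by 0.96, the endosomal RNA sensor Tlr7 by 0.91 and Tmem173, which encodes the adaptor STING, by 0.66. Irf7, the main amplifier of the response, had 1.98 and 2.03 FPKM in KO libraries against 4.11, 3.68 and 3.59 FPKM in WT libraries and fell by 0.67 (SE 0.11, limma adjusted p = 0.00586). Dhx58 fell by 0.57 and Zbp1 by 0.47, and Tlr9, which passed the filter through WT libraries alone, by 0.78. The call of Dhx58 was lost without WT replicate 1 or 2 or KO replicate 3 (adjusted p = 0.0569, 0.0622 and 0.104). The call of Tlr9 was lost with sex in the model (0.0699) and without KO replicate 3 (0.0910), and that of Zbp1 with sex in the model (0.0518).

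Of 5 tested genes listed for the joining of Isg15 to proteins, 2 fell and 1 rose, beside 13% and 9.08% of all tested genes. The 1 that rose was Herc3, which is listed only as a relative of the ligase gene Herc6. The median log2 change of the 5 was 0.17, beside -0.04 for all tested genes. Uba7, the activating enzyme, had 22.51 and 29.42 FPKM in KO libraries against 21.08, 18.67 and 22.16 FPKM in WT libraries and did not pass (log2 change 0.31, limma adjusted p = 0.134), although it did without KO replicate 2 (0.49, 0.0282). Ube2l6, the conjugating enzyme, had 7.23 and 7.5 FPKM in KO libraries against 11.66, 10.53 and 9.42 FPKM in WT libraries and fell by 0.46 (limma adjusted p = 0.0207). Without any 1 of WT replicates 1 and 2 and KO replicates 2 and 3 its adjusted p was 0.0566 to 0.0656. Herc6, the Isg15 ligase of mice, did not pass (0.17, 0.382). Trim25, another ligase, fell by 0.46 (0.0339), a call lost under 10 of 17 other settings, and Herc3, a relative of Herc6, rose by 0.63 (0.0120), a call lost with sex as a covariate (0.0828) and without KO replicate 3 (0.0575).

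Of 88 other interferon-stimulated genes, 80 had a row and 70 were tested. They include the Isg15-conjugation genes and several signal and sensing genes counted above, Irf7, Dhx58 and Zbp1 among them, so the lists overlap. Of the 70, 21 (30%) fell and 9 (12.9%) rose, beside 13% and 9.08% of all tested genes, and the median log2 change was -0.18 beside -0.04. The stricter filter on low values gave 19 calls among 49 tested genes, sex in the model gave 15 among 70, and 18 were called without WT replicate 2 or without KO replicate 3. Epsti1 had 2.11 and 2.26 FPKM in KO libraries against 10.17, 8.85 and 8.33 FPKM in WT libraries and fell by 1.66 (SE 0.11, limma adjusted p = 0.000272). Ifi27l2a fell by 1.66, Phf11b, which reached 1 FPKM in WT libraries alone, by 1.5 and Slfn5, of the Schlafen family, by 0.96. Ifitm3, which blocks virus entry at membranes, fell by 0.88, and Rtp4 and Trim30d, which passed the filter through WT libraries alone, by 0.88 and 0.79. Rtp4 was no longer called with sex in the model and without KO replicate 2 or 3 (adjusted p = 0.155, 0.0577 and 0.109), nor Trim30d with sex in the model (0.0698). Ly6a, which also marks blood stem cells, had 174.77 and 235.58 FPKM in KO libraries against 90.18, 54.10 and 55.06 FPKM in WT libraries and rose by 1.64 (SE 0.23, limma adjusted p = 0.00319). Mx1, whose promoter drives the Cre transgene, had 0.33 and 0.73 FPKM in KO libraries against 1.22, 0.65 and 1.17 FPKM in WT libraries and did not pass (-0.40, 0.215). Of the remaining synthetases, Oas3 did not pass (-0.25, 0.349), Oas2 had 0.08 and 0.07 FPKM in KO libraries against 0.45, 0.31 and 0.32 FPKM in WT libraries, and Oasl1 lay between 0.14 and 0.38 FPKM in all 5 libraries. Mx2 reached at most 0.03 FPKM in KO libraries and 0.24 FPKM in WT libraries.

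**Figure D4:**
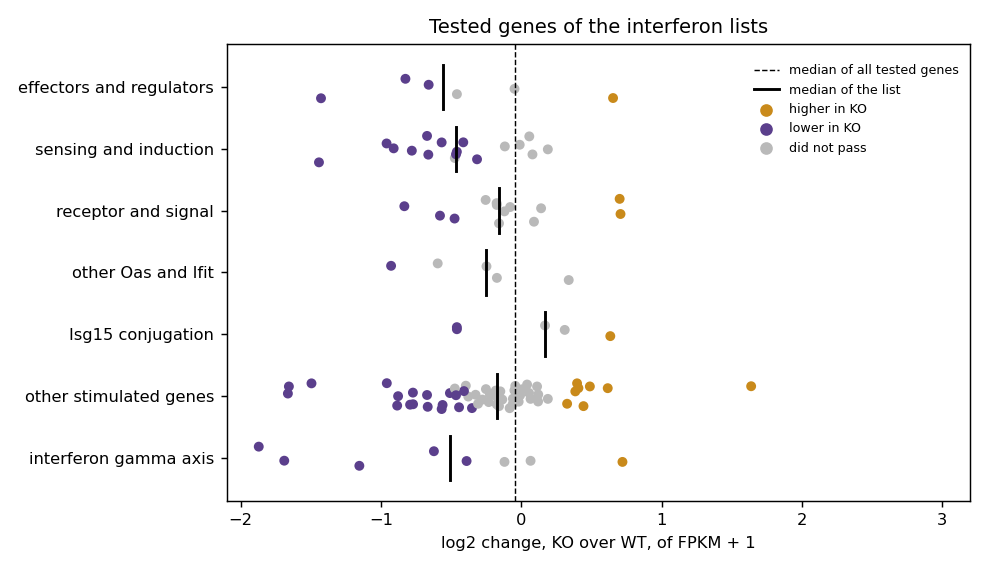
Change on the log2(FPKM + 1) scale, KO over WT, of every tested gene in each list, where a point is a gene coloured by its call, a solid bar is the median of the list and the dashed line the median of all tested genes (-0.04). Sensing and induction genes have 11 lower and 0 higher calls, and the other stimulated genes lie on both sides of 0. Some genes appear in several lists.

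The receptor and targets of interferon gamma, a separate ligand, were also measured. Of 8 tested, 5 fell and 1 rose, beside 13% and 9.08% of all tested genes, with a median log2 change of -0.51 beside -0.04. Irf8 fell by 1.87, Ciita, which reached 1 FPKM in WT libraries alone, by 1.69, the receptor chains Ifngr1 and Ifngr2 by 1.15 and 0.62 and Irf1 by 0.39, and Serpina3g rose by 0.72. The limma adjusted p of these 6 genes was 0.000350 to 0.0249. Irf1 lost its call under 8 of 17 other settings.

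Markers of cell types also differed between KO and WT libraries, where 13% of all tested genes fell and 9.08% rose. Of 16 tested monocyte and macrophage markers, 13 fell and 1 rose, and their summed level was 2708 to 2928 FPKM in KO libraries and 6365 to 8269 FPKM in WT libraries. No marker of that list was at 0. Of 10 conventional dendritic cell markers, 5 were tested and all 5 fell, while Flt3, Zbtb46, Xcr1, Clec9a and Cd209a were under 1 FPKM in every library. The summed level was 31.6 to 61.0 FPKM in KO libraries and 269 to 339 FPKM in WT libraries, and H2-Ab1 made up most of it in every library. Ciita, 1 of the 5, is also counted among the interferon gamma targets above and reached 1 FPKM in WT libraries alone. Of 12 tested mast cell markers 9 rose and none fell, with a summed level of 28281 to 32488 FPKM in KO libraries and 12011 to 13780 FPKM in WT libraries. Of 11 tested neutrophil markers 9 fell and none rose, with a summed level of 12751 to 16511 FPKM in KO libraries and 22152 to 32849 FPKM in WT libraries. Few genes carry these sums. In every library Lyz2 was the highest monocyte and macrophage marker, Cpa3 made up most of the mast cell sum, and S100a8 with S100a9 most of the neutrophil sum. Of 8 tested basophil markers 4 rose (Cd200r3, Il3ra, Gata2 and Fcer1a) and 1 fell (Cebpa). Gata2 and Fcer1a are also counted among the mast cell markers that rose. Mcpt8, Prss34 and Itga2 did not pass (log2 change -0.22, -0.06 and 0.19). Of 8 eosinophil markers 1 rose and none fell, and of 8 erythroid markers 3 fell and none rose. Of 3 tested B and plasma cell markers 1 fell, as did 1 of 2 tested T and NK cell markers, and none rose. The part of these cell types in the changes of Oas1a, Ifit2, Isg15 and Usp18 was not tested.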

How the data were processed

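Poly(A)-selected RNA of cultured bone marrow cells was sequenced on an Illumina HiSeq, per the labels' protocols. HISAT, edgeR, StringTie 1.2.1 and the build mm10 are named, without roles, per the submitters' processing notes. FPKM per gene, rounded to 2 decimals, were made by the authors, per the file headers. The authors also deposited p-values and a signed fold, a score, for the comparison. How reads were counted, and whether by strand, is not stated in the sources used here.

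Here, limma 3.58.1 in R 4.3.3 was run on log2(FPKM + 1), with the variance trended on the mean, genotype as the single term, 3 residual degrees of freedom and Benjamini-Hochberg adjustment over all 11365 genes with at least 1 FPKM in 2 libraries. edgeR was planned for counts and not run, since the values are FPKM. The procedure was tested on simulated data. The smallest two-sided p of an exact permutation test on 2 KO and 3 WT libraries is 0.2, and it was not used. Fragments were estimated as FPKM times the longest GENCODE transcript less 50 bases, over the step of each library, so they are approximate, above all for genes with several transcripts. The 9 genes and all lists were chosen with earlier results of these data known. All 9 genes are named, and of each list the called genes with the largest changes, at most 8, plus receptor, signal, Isg15-conjugation, Oas and Mx genes whatever their result.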

Additional observations from a re-analysis of the deposited data

How the results depend on the processing

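Scaling (4 ways), a pseudocount of 0.1, no filter or a filter at 5 FPKM, no trend, robust variances, sex as a covariate, a replicate block and leaving out each library were tried, and dropping the filter together with a pseudocount of 0.1 was chosen after seeing the data. Oas1a kept its direction and call under all 17 settings. The number of the 9 genes called was 4, with 2 under sex as a covariate and 3 to 4 when 1 WT library was left out. Without the filter it was 5, at either pseudocount, and under the stricter filter 3 of 4 tested genes were called. Over all genes 2507 calls became 1312 with sex as a covariate and 1623 to 2659 with 1 library left out, lowest without WT replicate 2. Of the 30 called among other interferon-stimulated genes, 15 were called with sex as a covariate, 19 with the stricter filter, which tests fewer genes, and 18 to 27 with 1 library left out. The log2 change of Bst2 (-0.05) was 0.0317 under upper-quartile scaling, 0.0339 under quantile normalization, and -0.32 to 0.22 with 1 library left out. The cause of these shifts was not tested.

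With the replicate number as a block, 4 of the 9 genes, 2058 of all genes and 23 of the other interferon-stimulated genes were called. The labels do not say that a number pairs samples. Deviations from the group means correlated at -0.03 between WT and KO replicate 2 and at 0.10 between WT and KO replicate 3. With only 2 KO libraries the KO deviations mirror each other, so these correlations can neither show nor exclude pairing. DESeq2 was not run, since the table holds no counts. Ifit1, Ifit3 and Rsad2 have values only without the filter. Estimated fragments of 1 to 13 per library limit what can be said of Ifit3.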
